A study of Homo sapiens with 6 samples.

Results

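The genes described here encode the collagens, the laminins and the integrins. They were chosen by name alone, as the protein-coding genes of the deposited table whose symbols follow the collagen chain, laminin chain or integrin subunit pattern, which gave 82 of 58302 genes: 44 collagens, 12 laminins, 18 integrin alpha subunits and 8 integrin beta subunits. Their RNA was measured by sequencing in 6 libraries of MDA-MB-231-DR, a doxorubicin-resistant derivative of the triple-negative human breast cancer line MDA-MB-231 that the study kept in medium with a low dose of doxorubicin. The 3 control libraries came from MDA-MB-231-DR cells, and their labels name no treatment or vehicle. The 3 CYT libraries came from the same cells treated with cyperotundone (CYT), a sesquiterpenoid ketone from sedge. The dose and time of CYT for these libraries, and whether doxorubicin was in their medium, are not given in the sources used here. The labels do not say that replicates were separate cultures, so p-values measure the spread between these libraries.

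Collagens are triple helices of alpha chains that form fibrils, networks or transmembrane molecules outside the cell, and type IV collagen forms the network of the basement membrane. Laminins are heterotrimers of an alpha, a beta and a gamma chain, and they are the other network of the basement membrane. Integrins are heterodimers of an alpha and a beta subunit that bind these ligands outside the cell and connect to actin or keratin filaments inside it. In breast epithelium these receptors hold cells to the basement membrane, and in invasive carcinoma cells they are used for migration through the matrix.

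Start-site sequences are shown for 3 members whose RNA differed between the groups, ITGA2 and COL13A1 (lower in CYT) and ITGA5 (higher in CYT). The sequences are from RefSeq windows on GRCh38.p14, 5′ to 3′ on the gene's strand, and bases inside annotated exons were left out. Capitals mark GGGCGG or its reverse complement CCGCCC (the GC box that binds Sp1 family factors), searched on both strands. ITGA2 lies on the plus strand at chr5:52989102-52989325, COL13A1 on the plus strand at chr10:69801656-69801866 and ITGA5 on the minus strand at chr12:54419461-54419516.
ITGA2: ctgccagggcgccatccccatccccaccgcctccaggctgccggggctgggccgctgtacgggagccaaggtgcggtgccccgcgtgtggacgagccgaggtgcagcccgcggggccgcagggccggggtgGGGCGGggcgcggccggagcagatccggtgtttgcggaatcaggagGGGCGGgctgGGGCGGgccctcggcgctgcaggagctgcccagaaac
COL13A1: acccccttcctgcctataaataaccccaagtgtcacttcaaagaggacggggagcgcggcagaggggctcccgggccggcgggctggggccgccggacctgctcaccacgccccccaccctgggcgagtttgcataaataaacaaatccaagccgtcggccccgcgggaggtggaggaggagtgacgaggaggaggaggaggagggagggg
ITGA5: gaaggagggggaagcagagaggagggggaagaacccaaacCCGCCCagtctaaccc
The ITGA2 stretch held 3 copies of GGGCGG within 224 bases with a GC content of 77.2%. The same stretch held that motif in 39.4% of all 35116 windows. The COL13A1 stretch held no GGGCGG in 211 bases, and 1 TATAAA, a motif present in 7.88% of all windows over the same stretch. The ITGA5 stretch was 56 bases and held 1 GGGCGG on the opposite strand, against 9.93% of all windows. A window was listed for 58 of the 82 members, and over the whole 250 bases before the start 31 of the 58 (53.4%) held GGGCGG, beside 42.6% of all windows. TATAAA was in 6 of the 58 (10.3%), beside 10.7% of all windows. These letters are a description and not binding sites.

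Total counts ran from 13056270 to 17770102 per library. The line's own genes were present, with VIM between 11463 and 44600 counts, EGFR between 191 and 3104 and CD44 between 1432 and 2807, and of 6 genes listed as low or absent in the line (summed level 51.0 to 88.9 CPM in control and 30.7 to 57.8 CPM in CYT), ESR1 and PGR had at most 4 counts in any library and CDH1 at most 16, while GATA3 had 33 to 93, FOXA1 34 to 141 and ERBB2 236 to 1327. VIM, EGFR and AXL were lower in CYT, AXL with an edgeR adjusted p over 0.05 whichever library was left out (0.0509 to 0.131). Among the markers named next, KDR lost its call without any 1 control library (0.0531 to 0.070), and CD14 (0.0634) and PDGFRB (0.0502) without control replicate 1. Of the fibroblast markers, DCN was at 0 and LUM at no more than 1 count in all 6 libraries, and the summed level of the 7 genes was 13.6 to 23.4 CPM (counts scaled to library size) in control and 23.1 to 45.1 CPM in CYT, with ACTA2 higher and PDGFRB lower. The summed level of 5 endothelial markers was 1.92 to 3.59 CPM against 2.75 to 5.01 CPM, with KDR higher. Among 6 leukocyte genes CD3E was at 0 throughout, the sum was 289 to 338 CPM against 177 to 306 CPM, nearly all of it LCP1, and CD14 was higher. Fewer cells of a type and less RNA per cell cannot be told apart in such libraries. CYT replicate 2 stood apart, with a correlation of log expression of 0.905 with CYT replicate 1 and 0.904 with CYT replicate 3, which correlated with each other at 0.970. Among the tested members its excess over those libraries fell with the GC content of the transcript (Spearman's rho of -0.82 across 43 genes, which share these libraries), as it did over 15542 genes (-0.76).

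**Figure D1:**
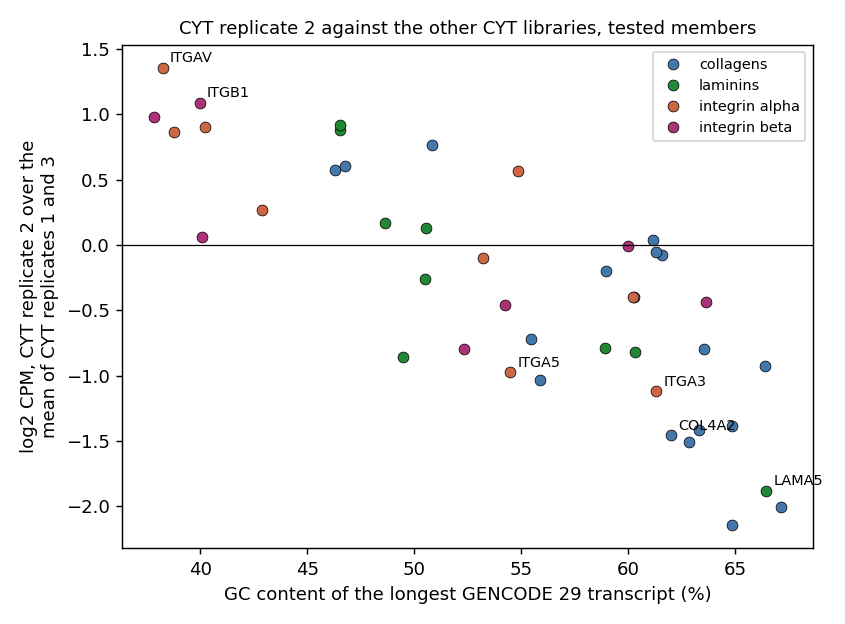
Each point is a tested member (43 genes). The x axis is the GC content of its longest annotated transcript in percent, and the y axis is the log2 ratio of its CPM in CYT replicate 2 to the mean of CYT replicates 1 and 3. Members of low GC content such as ITGAV and ITGB1 lie above 0, and GC-rich members such as ITGA3, COL4A2 and LAMA5 lie below it.

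A gene was tested where it passed edgeR's filter on low counts, and it was called where edgeR's quasi-likelihood test gave it an adjusted p (Benjamini-Hochberg, over all genes tested) under 0.05. Of the 82 members, 43 passed the filter and 16 were called, 6 higher and 10 lower in CYT. Over all 15572 genes tested, 28.6% were called, 15.7% higher and 12.9% lower. The groups did not overlap in CPM for 22 of the 43 members, 8 with every CYT library above control and 14 with every CYT library below, where 46.1% of all genes tested did not overlap (23.4% above and 22.7% below). The median log2 fold change was -0.02 over the members and 0.01 over all genes tested. By family, 2 of 18 tested collagens were higher and 5 lower, 1 of 9 laminins was higher and 1 lower, and 3 of 16 integrins were higher and 4 lower. Without CYT replicate 2, 16 of 46 tested members were called, 14 of them the same, where 35.6% of all genes tested were called. The fewest were called without control replicate 3, 9 of 48, where 17.6% of all genes tested were called. The filter asks for 3 libraries at a minimum level, and 7 tested members met it through the group where they are high, since the other group alone would not have passed. Of these 7, 5 were called (COL20A1, ITGB6 and LAMA2 higher, COL9A2 and COL16A1 lower), and ITGB8 and LAMA4 were not. All 7 had to differ in part to be tested. Of the other 36 tested members 11 were called, 3 higher and 8 lower.

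**Figure D2:**
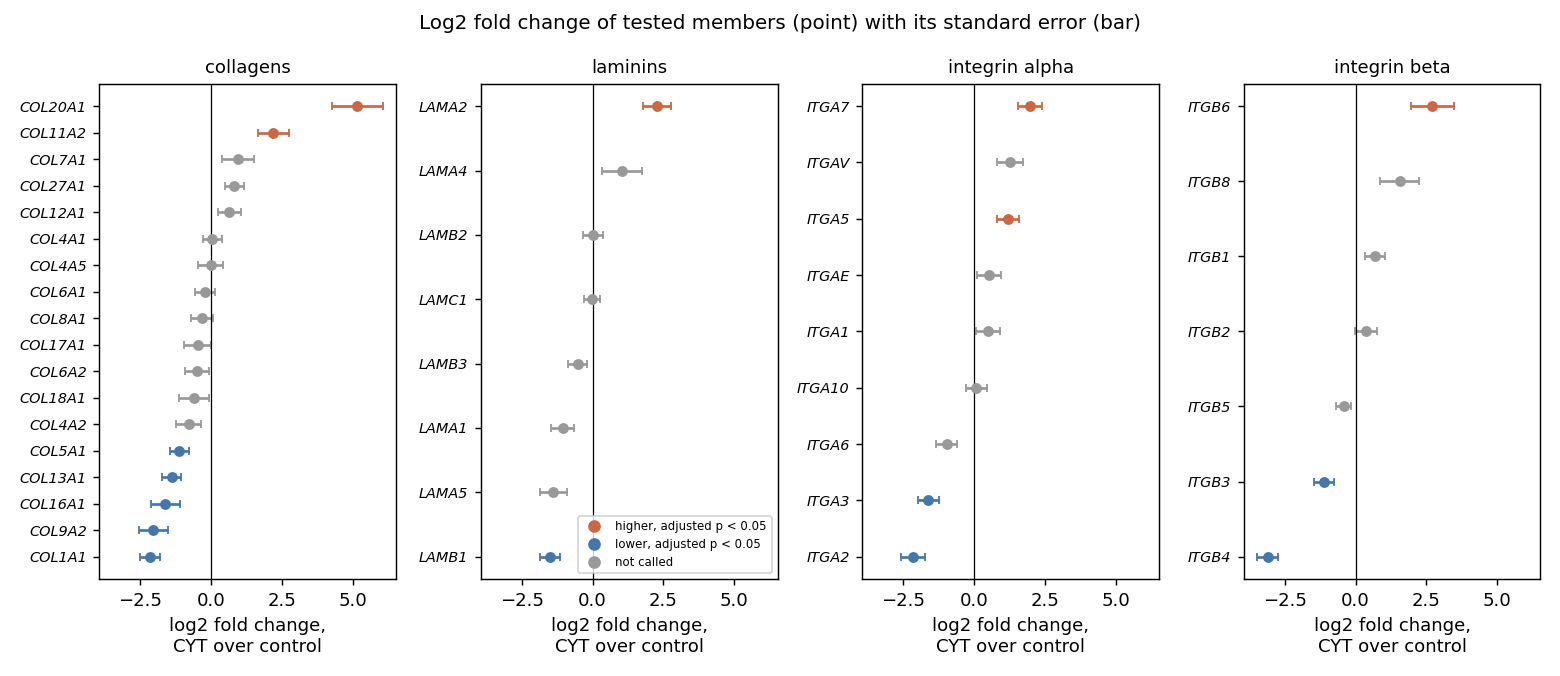
Points give the fitted log2 fold change of the tested members reported here, CYT over control (x axis), and bars give the standard error, with collagens, laminins, integrin alpha and integrin beta subunits in separate panels. Orange marks the 6 members called higher, blue the 10 called lower and grey those not called. The fitted value of COL20A1 (1 control count in all) depends on the prior count and is no bound.

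Levels were compared between genes only as deposited FPKM, which divides by transcript length. In control cells LAMB3, the beta chain of the epithelial laminin that anchors hemidesmosomes, was the highest member at 109 ± 21.3 FPKM (SD, n = 3), apart from every other member. ITGB1, the beta subunit shared by most matrix-binding integrins, followed at 31.2 ± 3.36 FPKM, and ITGA3, the alpha subunit that pairs with it to bind laminin, was at 30.6 ± 4.995 FPKM. The last 2 did not differ beyond their spread. ITGB5 at 22.5 ± 0.970 FPKM, LAMB2 at 15.3 ± 4.05, LAMA5 at 13.6 ± 2.12 and COL13A1 at 12.9 ± 2.87 came next, and these last 3 lay within each other's spread. In CYT cells LAMB3 and ITGB1 kept ranks 1 and 2 (76.9 ± 20.6 and 51.4 ± 27.9 FPKM, within each other's spread), ITGA5 moved from rank 10 to rank 3, and ITGA3 moved from rank 3 to rank 8.

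**Figure D3:**
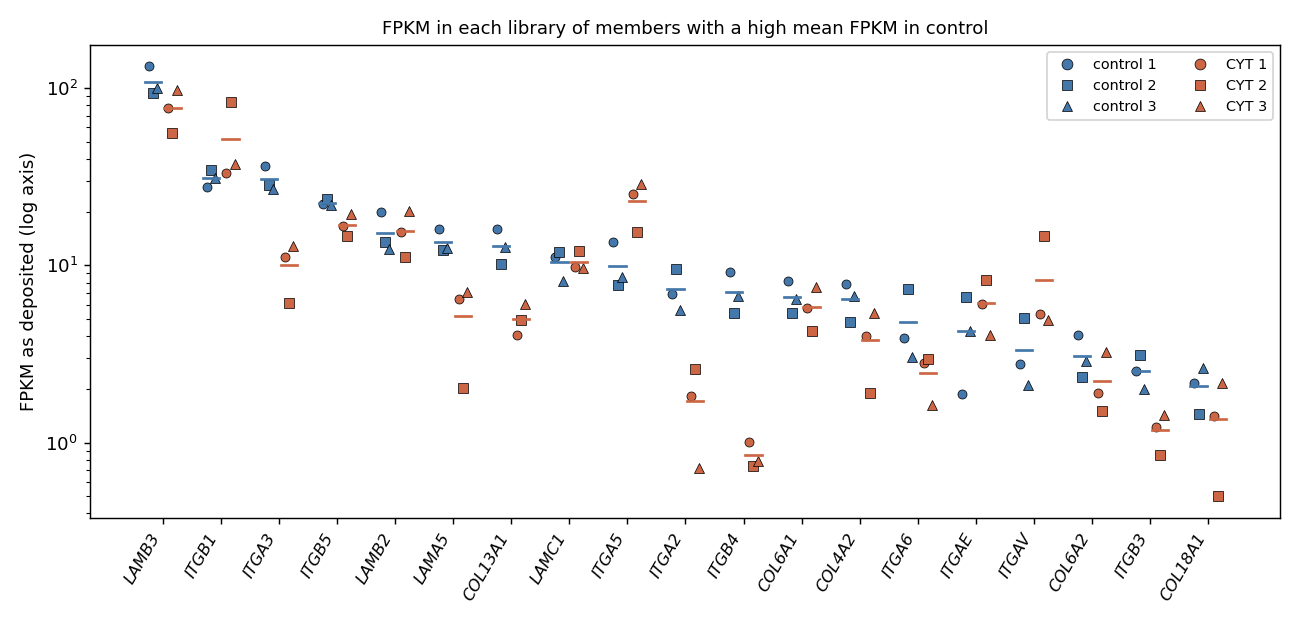
FPKM (log axis) of members with a high mean in control, with 1 point per library (blue control, orange CYT) and a line at each group's mean. LAMB3 has the highest mean in both groups, but in CYT replicate 2 ITGB1 lies above it (83.6 against 56.2 FPKM). The ITGA3, ITGA2 and ITGB4 points of CYT lie below those of control, while those of ITGA5 lie above.

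Among the integrin beta subunits, ITGB4 showed the largest fall of any tested member. ITGB4 pairs with the alpha subunit ITGA6 to form the hemidesmosome receptor for laminin. It had 1605, 958 and 952 counts in control and 144, 97 and 107 in CYT, in the order of replicates 1, 2 and 3 as throughout (73.0 ± 24.6 against 8.52 ± 1.63 CPM). The lowest control library was far above the highest CYT library. The log2 fold change was -3.10 (SE 0.36, edgeR adjusted p = 0.000748), 8.56-fold lower, and -2.44 with the correction for GC content and transcript length (edgeR adjusted p = 0.000332). ITGB4 lies at chr17:75721328-75757818 (hg38), and its partner ITGA6 was not called. ITGA6 had 732, 1409 and 458 counts in control and 430, 415 and 237 in CYT, with every CYT library below control in CPM, at a log2 fold change of -0.96 (SE 0.38, edgeR adjusted p = 0.0836). With the replicate number as a block, ITGA6 was called (log2 fold change -0.91, edgeR adjusted p = 0.0208), as it was with the GC and length correction (-0.83, edgeR adjusted p = 0.0320). The FPKM ratio of ITGB4 to ITGA6 within a library was 2.35, 0.727 and 2.22 in control and 0.358, 0.250 and 0.483 in CYT, so that it was lower in every CYT library.

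ITGB1, one of the genes that mark this group, had 5126, 6516 and 4667 counts in control and 4997, 11605 and 5343 in CYT (333 ± 14.7 against 534 ± 255 CPM). Every CYT library was above control in CPM, and CYT replicate 2 was far above the other libraries. The log2 fold change of 0.68 (SE 0.35) was not called (edgeR adjusted p = 0.174), and it was 0.21 without CYT replicate 2 (edgeR adjusted p = 0.513). With the correction for GC content and transcript length ITGB1 was called (0.59, edgeR adjusted p = 0.0484), but not with that correction and the replicate block together (0.58, edgeR adjusted p = 0.0795). Reads of the ITGB1 start can also come from ITGB1-DT on the opposite strand, which shares 42 exonic bases and had 5 to 99 counts per library. ITGB5, which pairs with ITGAV to bind vitronectin, had 3526, 3862 and 2822 counts in control and 2167, 1754 and 2402 in CYT, all lower in CPM, and was not called (log2 fold change -0.42, SE 0.28, edgeR adjusted p = 0.287).

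ITGB3, the other vitronectin receptor subunit, had 221, 277 and 141 counts in control and 87, 56 and 97 in CYT. Every CYT library was below control in CPM. It was called lower (log2 fold change -1.11, SE 0.36, edgeR adjusted p = 0.0451), but it was not called without any 1 of the 6 libraries (0.0569 to 0.111). ITGB3 shares 2266 exonic bases on the same strand with AC068234.1, which had at most 1 count in any library. ITGB6, the epithelial subunit that binds latent transforming growth factor beta, was at 0, 5 and 3 counts in control and 14, 16 and 15 in CYT. The 3 CYT libraries were above control (log2 fold change 2.71, edgeR adjusted p = 0.0263), and ITGB6 passed the filter through the CYT group alone. It was also called with no filter (edgeR adjusted p = 0.0470). The main call was lost without control replicate 1 or 3 or without CYT replicate 1 or 3 (0.0599 to 0.0894), and with limma on FPKM (0.127). Without control replicate 2 the log2 fold change of ITGB6 was 3.30. ITGB6 shares 966 exonic bases on the same strand with AC092153.1, for which no counts are given, so the source of its few reads is uncertain. ITGB8, which also binds latent transforming growth factor beta, was not called (log2 fold change 1.56, edgeR adjusted p = 0.116). It was called with the replicate block (1.59, edgeR adjusted p = 0.0389) and with the GC and length correction (1.71, edgeR adjusted p = 0.0326). ITGB8 passed the filter through the CYT group, so it had to differ in part to be tested. Without control replicate 2 its log2 fold change was 2.33 (edgeR adjusted p = 0.0546). ITGB2, the leukocyte subunit, had 49 to 74 counts and was not called, and ITGB7 did not pass the filter with at most 8 counts.

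Of the 9 tested alpha subunits, ITGA3 and ITGA2 were lower in CYT and ITGA5 and ITGA7 were higher. ITGA3, the laminin-binding partner of ITGB1 (chr17:50055968-50090481) had 10551, 8465 and 6363 counts in control and 2646, 1344 and 2891 in CYT (521 ± 116 against 171 ± 68.4 CPM). The groups were well apart, with CYT replicate 2 the lowest. The log2 fold change was -1.61 (SE 0.37, edgeR adjusted p = 0.0108), or -1.32 without CYT replicate 2 (edgeR adjusted p = 0.00644). ITGA2, which pairs with ITGB1 to bind fibrillar collagen, had 1089, 1540 and 716 counts in control and 234, 307 and 87 in CYT. The highest CYT library was below the lowest control library, and the log2 fold change was -2.15 (SE 0.44, edgeR adjusted p = 0.0061). ITGA1, the neighbouring gene, lies 30115 bases from ITGA2 on chromosome 5 and encodes another collagen-binding subunit. It had 117, 226 and 91 counts in control and 175, 245 and 86 in CYT, overlapping between groups, and was not called (log2 fold change 0.50, SE 0.42, edgeR adjusted p = 0.405). ITGA1 shares 475 exonic bases on the same strand with PELO, which had 296 to 1128 counts and was lower in CYT (log2 fold change -1.08, edgeR adjusted p = 0.0226), so its values are uncertain.

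ITGA5, the fibronectin receptor subunit (chr12:54395261-54419460), had 3004, 1750 and 1543 counts in control and 4545, 2556 and 4951 in CYT (130 ± 49.4 against 299 ± 107 CPM). Control replicate 1 was slightly above CYT replicate 2 in CPM, so the groups overlapped there, while the deposited FPKM (13.6, 7.73 and 8.62 against 25.3, 15.4 and 28.9) did not overlap. ITGA5 was called higher (log2 fold change 1.20, SE 0.38, edgeR adjusted p = 0.0428), and the call was lost without control replicate 2 or 3 or without CYT replicate 1 or 3 (0.108 to 0.152). ITGAV, which pairs with several beta subunits to bind RGD motifs, had 655, 1221 and 403 counts in control and 1022, 2581 and 897 in CYT. Every CYT library was above control in CPM, with CYT replicate 2 the highest. It was not called (log2 fold change 1.28, SE 0.46, edgeR adjusted p = 0.0642). With the replicate block ITGAV was called (1.21, edgeR adjusted p = 0.0059), as it was with DESeq2 (adjusted p = 0.0192), upper-quartile scaling (edgeR, 0.0452), the GC and length correction (edgeR, 0.00203) and without control replicate 2 (edgeR, 0.0473). Without CYT replicate 2 its log2 fold change was 0.66 and not called (edgeR adjusted p = 0.158). ITGA7, a laminin receptor subunit best known from muscle, rose from a low level, with 19, 18 and 11 counts in control and 58, 45 and 55 in CYT (log2 fold change 1.98, SE 0.42, edgeR adjusted p = 0.00776). Its groups did not overlap, and its ends share up to 44 exonic bases with neighbouring genes.

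Per length, the largest share of alpha subunit RNA was that of ITGA3 in control and that of ITGA5 in CYT. Of the summed FPKM of all 18 alpha subunits, ITGA3 held 54.5%, 43.0% and 52.5% in control and 20.6%, 11.8% and 23.5% in CYT, while ITGA5 held 20.4%, 11.7% and 16.7% in control and 46.5%, 29.5% and 52.8% in CYT. Neither share overlapped between groups. The summed FPKM itself was 66.7, 66.2 and 51.6 in control and 54.4, 52.0 and 54.8 in CYT, so the groups overlapped. The ratio of ITGA5 to ITGA3 was 0.374, 0.271 and 0.318 in control and 2.25, 2.50 and 2.25 in CYT, and the 3 CYT libraries differed little, CYT replicate 2 included. An exact two-sided permutation test gave p = 0.1, the smallest that 3 against 3 libraries allow, and 0.138 after Benjamini-Hochberg adjustment over the 11 ratios computed, which were chosen after their values were seen. ITGA3 relative to ITGB1 was 1.31, 0.826 and 0.867 in control and 0.337, 0.0736 and 0.344 in CYT, lower in every CYT library, while ITGA5 relative to ITGB1 overlapped (0.489, 0.224 and 0.276 against 0.759, 0.184 and 0.773). Among the 8 beta subunits ITGB1 held 48.8 ± 3.55% of the summed FPKM in control and 69.5 ± 11.7% in CYT, and ITGB4 held 11.2 ± 3.43% and 1.32 ± 0.591%.

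**Figure D4:**
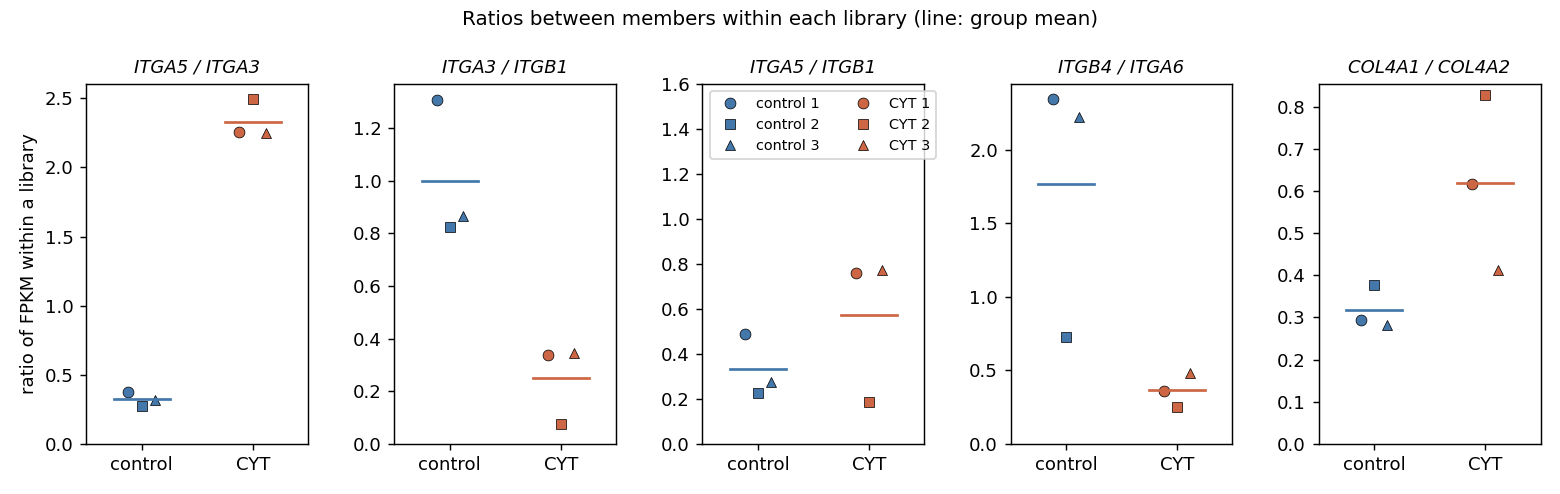
Ratios of deposited FPKM between pairs of members within each library, with 1 point per library (blue control, orange CYT) and a line at the group mean. ITGA5 over ITGA3 lies near 0.321 in control and 2.33 in CYT with no overlap, while ITGA5 over ITGB1 overlaps.

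Of the 9 tested laminin chains, 7 were not called. LAMB3 (chr1:209614870-209652466) had 14365, 10312 and 8747 counts in control and 6770, 4560 and 8126 in CYT (690 ± 179 against 483 ± 161 CPM). The groups overlapped, and LAMB3 was not called (log2 fold change -0.51, SE 0.34, edgeR adjusted p = 0.278). Its alpha chain partner LAMA3 had 7, 0 and 8 counts in control and 17, 8 and 12 in CYT and did not pass the filter. LAMB2 (4736, 3289 and 2390 against 2963, 2003 and 3719 counts) and LAMC1 (1864, 2025 and 1108 against 1323, 1519 and 1246 counts), a beta and a gamma chain, overlapped between groups. Their log2 fold changes were 0.01 (SE 0.36) and -0.01 (SE 0.28), with edgeR adjusted p values of 0.981 and 0.979, and their sign changed with the normalization or filter.

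LAMB1, another laminin beta chain, had 398, 493 and 349 counts in control and 181, 81 and 103 in CYT (25.3 ± 0.815 against 8.91 ± 3.56 CPM). The control libraries were nearly equal in CPM and the CYT libraries all lay below them. It was called lower (log2 fold change -1.51, SE 0.36, edgeR adjusted p = 0.0128), a call that missed the threshold without CYT replicate 3 (0.0548). LAMA5, the alpha chain of the laminins of most adult basement membranes, had 4963, 3864 and 3143 counts in control and 1631, 477 and 1703 in CYT. Every CYT library was below control, CYT replicate 2 by the most. It was not called (log2 fold change -1.38, SE 0.47, edgeR adjusted p = 0.0527), and it was called with the replicate block (-1.58, edgeR adjusted p = 0.00838) and without CYT replicate 2 (-0.98, edgeR adjusted p = 0.0201). LAMA5 was also called with DESeq2 (adjusted p = 0.0192), limma (0.0307), no filter (edgeR, 0.0237) and the GC and length correction (-0.90, edgeR, 0.00381). It shares 244 exonic bases on the opposite strand with ADRM1, which had 2182 to 11137 counts. LAMA2, the muscle and nerve laminin alpha chain, rose from 8, 10 and 10 counts to 32, 57 and 27 (log2 fold change 2.27, SE 0.50, edgeR adjusted p = 0.00884). The groups did not overlap for LAMA2, which passed the filter through the CYT group and was also called with no filter (edgeR adjusted p = 0.0114). LAMA1 (19 to 69 counts) and LAMA4 (4 to 32 counts) were not called, and LAMC3 and LAMB4 had at most 3 counts in any library.

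Of the collagens, the transmembrane collagen COL13A1 was the highest in control. It is a single-pass membrane protein found at adhesion sites, and its FPKM was 15.9, 10.2 and 12.6 in control and 4.05, 4.91 and 6.08 in CYT, from 2454, 1612 and 1575 against 506, 569 and 724 counts. The lowest control value was well above the highest CYT value. The log2 fold change was -1.39 (SE 0.34, edgeR adjusted p = 0.0135), and the call missed the threshold without control replicate 1 (0.0571) or CYT replicate 1 (0.0595).

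Among the fibrillar collagens COL1A1, the main chain of type I collagen (chr17:50183289-50201632), had 316, 219 and 192 counts in control and 55, 48 and 35 in CYT. The lowest control library held several times the counts of any CYT library, and the log2 fold change was -2.16 (SE 0.36, edgeR adjusted p = 0.00264), or -1.53 with the GC and length correction (edgeR adjusted p = 0.00754). COL1A2, the chain that joins it in the type I heterotrimer, had 0 counts in all 3 control libraries and 6, 0 and 0 in CYT, and a count of 0 allows up to 3 counts per library. COL5A1, which starts type I fibrils, had 280, 200 and 213 counts in control and 93, 77 and 99 in CYT, with no overlap (log2 fold change -1.12, SE 0.34, edgeR adjusted p = 0.0349). It was -0.58 with a correction for GC content and transcript length (edgeR adjusted p = 0.101), and the call was also lost without control replicate 1 or 3 or without CYT replicate 1 or 3 (0.065 to 0.113). Its partner COL5A2 did not pass the filter (7, 11 and 6 against 9, 27 and 3 counts). COL11A2, a chain of the cartilage fibril collagen, rose, with 48, 20 and 22 counts in control and 132, 57 and 156 in CYT. The groups did not overlap (log2 fold change 2.19, SE 0.54, edgeR adjusted p = 0.015), but the call missed the threshold without control replicate 3 (0.0637) or CYT replicate 3 (0.0546). Its partners COL11A1 and COL2A1 had at most 6 and 7 counts. COL27A1 (69 to 138 counts) had every CYT library above control and was not called (log2 fold change 0.81). It was called with the GC and length correction (1.44, edgeR adjusted p = 0.0104).

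Of the 4 tested fibril-associated collagens, 3 were at low counts and were called. COL9A2 fell from 97, 56 and 78 counts to 23, 8 and 17 (log2 fold change -2.03, edgeR adjusted p = 0.0167), and was not called without control replicate 1 (0.0600) or 3 (0.0593). COL16A1 fell from 43, 50 and 47 counts to 13, 6 and 19 (log2 fold change -1.61, edgeR adjusted p = 0.045), a call lost when any library but CYT replicate 3 was left out (0.0605 to 0.136). Neither gene overlapped between groups, and both passed the filter through the control group. COL20A1 had 0, 0 and 1 count in control and 14 in each CYT library (edgeR adjusted p = 0.00307), and it too passed the filter through the CYT group alone. It was also called with no filter (edgeR adjusted p = 0.00318). Its summed counts relative to summed library size were 50.2 times higher in CYT than in control, with a 95% exact counting interval of 8.54 to 2031 that rests on 42 counts against 1 and covers counting error only. COL12A1, the other tested member of this class, had 193 to 687 counts, overlapped between groups and was not called.

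None of the 3 tested basement membrane collagens was called by edgeR's quasi-likelihood test, DESeq2 or limma, and 0 of them had an unadjusted edgeR p under 0.05. COL4A1 had 362, 287 and 242 counts in control and 314, 186 and 269 in CYT (18.4 ± 3.68 against 18.9 ± 4.93 CPM), fully overlapping, at a log2 fold change of 0.04 (SE 0.33, edgeR adjusted p = 0.939). Its partner COL4A2, the other chain of the common type IV trimer, had 1343, 832 and 933 counts in control and 556, 245 and 711 in CYT, also overlapping, at a log2 fold change of -0.78 (SE 0.44, edgeR adjusted p = 0.21). With the replicate block COL4A2 was called (-0.89, edgeR adjusted p = 0.0331), and without CYT replicate 2 the fold change was -0.44 (edgeR adjusted p = 0.301). These genes are transcribed in opposite directions from starts 126 bases apart at chr13:110307157-110307284. The FPKM ratio of COL4A1 to COL4A2 was 0.294, 0.377 and 0.283 in control and 0.616, 0.829 and 0.413 in CYT, higher in every CYT library (exact two-sided permutation p = 0.1, 0.138 adjusted over the 11 ratios). The sign for COL4A1 alone changed with the filter on low counts and with the library left out. COL4A5 (31 to 71 counts) was near 0 and not called, and COL4A3, COL4A4 and COL4A6 had at most 16, 17 and 5 counts. COL6A1 and COL6A2, neighbours on chromosome 21 that form the beaded filament collagen, were not called (log2 fold change -0.20 and -0.49, both above 0 with the GC and length correction), and their partner COL6A3 had 2 to 11 counts. COL7A1 of the anchoring fibril, COL8A1, COL17A1 of the hemidesmosome and COL18A1 were not called either, with log2 fold changes of 0.96, -0.31, -0.47 and -0.61. COL7A1 was called without CYT replicate 2 (1.38, edgeR adjusted p = 0.0227) and with the GC and length correction (1.37, edgeR adjusted p = 0.0161).

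**Figure D5:**
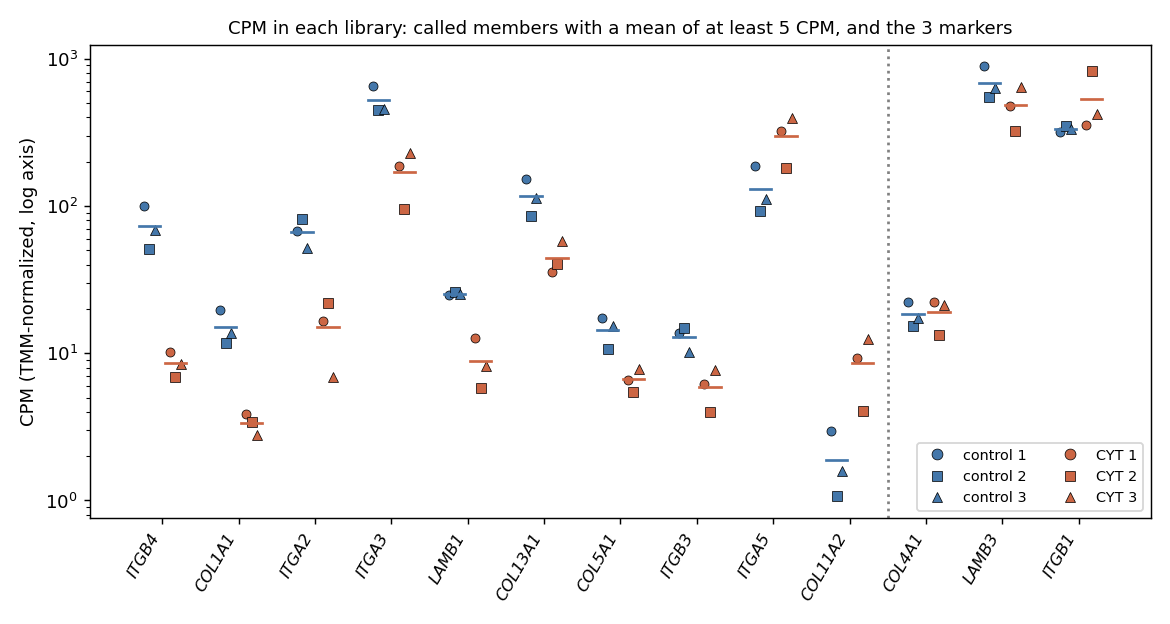
CPM (log axis) in each library for the 10 called members whose mean reached 5 CPM, and, right of the dotted line, COL4A1, LAMB3 and ITGB1. Blue points are control libraries, orange points CYT libraries, and lines are group means. The groups separate for ITGB4, COL1A1, ITGA2, ITGA3, LAMB1, COL13A1, COL5A1, ITGB3 and COL11A2, touch for ITGA5, and overlap for COL4A1 and LAMB3.

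The remaining 39 members did not pass the filter and were not tested. The highest count among them in any library was 27, for COL5A2, and 13 had no more than 3 counts in every library. COL23A1 was at 0 in all 6. They included the leukocyte alpha subunits ITGAM, ITGAL, ITGAX and ITGAD (at most 16, 9, 7 and 3 counts), the platelet subunit ITGA2B (14), and ITGA8, ITGA9, ITGA11 and ITGA4 (10, 12, 3 and 2). ITGAE, which pairs with ITGB7 to bind E-cadherin, passed the filter at 273 to 984 counts and was not called, but 427 of its exonic bases are shared with HASPIN, and ITGA10 (47 to 107 counts) was not called. Exons of 23 of the 43 tested members, 7 of them called, overlap another annotated gene, and a strand setting of the counting is not given in the sources used here.

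Other genes of matrix assembly and adhesion were taken from 4 lists of 93 genes in all, and their shares stand beside the 28.6% of all genes tested that were called (15.7% higher and 12.9% lower). Of 26 tested genes of collagen synthesis and cross-linking, 3 were higher and none lower by edgeR's quasi-likelihood test (11.5% called, median log2 fold change 0.31), and none was lower at an unadjusted p under 0.05, by DESeq2 or by limma. DESeq2 called 3 higher and limma 1. The higher genes were the lysyl hydroxylase PLOD2 (log2 fold change 1.36, edgeR adjusted p = 0.0232), the lysyl oxidase LOX (1.22, 0.0427) and LOXL3 (1.12, 0.0428). Of 12 tested basement membrane partners, 1 was higher, the netrin NTN4 (1.59, edgeR adjusted p = 0.00982), and 3 were lower. The lower genes were FBLN1 (-1.93, edgeR adjusted p = 0.00658), the collagen chaperone SPARC (-1.48, 0.00645) and PXDN, which cross-links type IV collagen (-1.11, 0.0176). Of 33 tested integrin activators and focal adhesion components, none was higher and 10 were lower (30.3% called, median log2 fold change -0.51), and none was higher at an unadjusted p under 0.05, by DESeq2 or by limma. TNS4, a tensin that binds beta subunit tails, had 2146, 1433 and 1387 counts in control and 177, 73 and 95 in CYT. That was far below control in every CYT library (-3.61, edgeR adjusted p = 0.000745). TNS3 (-2.81, edgeR adjusted p = 0.00122) and the kindlin FERMT1 (-1.88, 0.00577) were also lower. Of 11 other matrix receptors 3 were higher and none lower by edgeR, while 2 were lower at an unadjusted p under 0.05, 2 by DESeq2 and 1 by limma. Among the higher genes were the syndecans SDC4 (1.70, edgeR adjusted p = 0.00245) and SDC2 (1.15, 0.0205). SDC4 had 3123, 3371 and 2020 counts in control and 7970, 6795 and 8044 in CYT, with no overlap. Of the list genes named here, PLOD2 was not called without control replicate 1 or 3 (edgeR adjusted p = 0.089 and 0.102), LOX without any library but control replicate 2 (0.0626 to 0.160) or with no filter (0.0575), and LOXL3 without control replicate 2 or 3 or CYT replicate 1 or 3 (0.0797 to 0.168) or with no filter (0.0711). NTN4 was not called without control replicate 1 (edgeR adjusted p = 0.0501), PXDN without control replicate 1 or CYT replicate 1 (0.0673 and 0.0794), and SDC2 without control replicate 1 or 3 or CYT replicate 1 (0.0515 to 0.0958).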

How the data were processed

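The deposited table held, per the file headers, read counts per gene (whole numbers as the authors counted them) and FPKM (as the authors normalized by transcript length and library total) for 58302 genes in 6 libraries. The submitters' notes name hg38 and FastQC 0.12.1, and the study's methods name Hisat2 for alignment and StringTie for FPKM. Versions and a strand setting are not given in the sources used here. Columns were matched to the labels by name. Members and lists were chosen with earlier results of these data known.

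Counts were tested on all 6 libraries with edgeR 4.0.16 in R 4.3.3: filterByExpr (minimum count 10), TMM, and the quasi-likelihood test for CYT against control with Benjamini-Hochberg adjustment over 15572 genes (call: adjusted p under 0.05). CPM values are TMM-scaled. The biological coefficient of variation was 37.5%. Every member called was named, with full values for called members at a mean of at least 5 CPM, the 3 markers, the 8 highest members in control and partner subunits, and up to 4 called genes per list and direction. Alternatives were DESeq2 1.42.0, upper-quartile scaling, no filter, a stricter filter (mean CPM of 5 or more), limma 3.58.1 on log2(FPKM + 1), the replicate number as a block, an absolute log2 fold change over 1, and leaving out each library. A correction for GC content and transcript length was added after seeing the data. Deviations of same-numbered libraries from their group means correlated at 0.188, 0.458 and 0.124 for replicates 1, 2 and 3. All exceeded 0.1. The main fit and the permutation tests did not pair the libraries, and the replicate block was an alternative only. The labels do not say what a number shares, and some crossed pairs correlated as much (control 1 with CYT 3 at 0.303, control 3 with CYT 1 at 0.201). No 2 libraries agreed within sampling noise. Scripts were tested on simulated data. A few genes that enter the counts are not reported here by name. Sequences and exon overlaps came from RefSeq (GRCh38.p14) and GENCODE 29.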

Additional observations from a re-analysis of the deposited data

How the results depend on the processing

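The calls of COL1A1, ITGA2, ITGA3, ITGB4, ITGA7 and LAMA2 held under every alternative in which the gene was tested. The 16 of 43 members called, where 28.6% of all genes tested were called, became 18 with DESeq2 (all genes 33.9%), 18 of 81 with no filter (16.0%), 15 with limma (28.2%) and 14 with upper-quartile scaling (28.9%), which split them into 7 higher and 7 lower in place of 6 and 10. Upper-quartile scaling moved the all-gene median of the log2 fold change to 0.16, and no filter to 0.41. A mean of at least 5 CPM kept 29 members for the test, of which 8 were called, 2 higher and 6 lower. In all 2859 genes were called there (25% of those tested), against 4451 (28.6%). Of the 8 lost calls, those of COL5A1 (0.0548) and ITGB3 (0.0694) were lost in the test, and the other 6 genes were not tested there. With the GC and length correction 22 members were called, 11 of them higher, with 31 list genes and 7140 genes in all (45.9%). With that correction and the replicate block together it was 20 members, 10 of them higher, with 32 list genes and 7014 genes in all (45.1%). The replicate block alone gave 21 members (8 higher and 13 lower) where 39.9% of all genes tested were called, all 16 and COL4A2, ITGA6, ITGAV, ITGB8 and LAMA5, and changed no other member's call. Leaving out 1 library gave 9 to 16 members called, 3 to 7 higher and 5 to 9 lower, and 11 to 25 list genes against 20. Over all genes tested, 2891 to 5752 were called (17.6% to 35.6%). The fewest members were called without control replicate 3 (9 of 48 tested, all genes 17.6%). Without control replicate 1 it was 10 of 48 (all genes 18.3%), and without CYT replicate 3 it was 10 of 45 (all genes 19.8%). The causes were not tested.

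Signs changed for 7 members that were not called under any alternative. LAMC1 was 0.0194 with DESeq2, 0.14 with upper-quartile scaling, 0.0894 at a mean of at least 5 CPM, 0.0203 with limma, 0.0027 with the replicate block, 0.15 with the GC and length correction, 0.16 with both, and -0.18 to 0.0753 when a library was left out. COL4A1 was -0.0174 with no filter and -0.0914 to 0.24 when a library was left out. LAMB2 was -0.0412 with no filter, -0.0062 with the replicate block and -0.25 to 0.29 when a library was left out. COL4A5 was 0.0108 with DESeq2, 0.14 with upper-quartile scaling, 0.0029 with limma, 0.1945 with the GC and length correction, 0.15 with both, and -0.33 to 0.17 when a library was left out. COL6A1 was 0.29 with the correction, 0.26 with both, and -0.46 to 0.0172 when a library was left out. COL6A2 was 0.0379 with the correction, and ITGA10 was -0.16 to 0.31 when a library was left out. ITGB3, COL16A1 and COL5A1 also lost their calls with upper-quartile scaling (0.0717, 0.0619 and 0.0556), ITGB3 with no filter (0.0534), and COL20A1 with limma (0.0909). Members with few counts carry wide errors, and of those not tested in the main comparison COL9A1 and ITGAM were called with no filter, both higher in CYT, and ITGAM also with CYT replicate 1 left out (2.79 on the log2 scale, edgeR adjusted p = 0.0255).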
